A study of Mus musculus with 6 samples.

Results

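Voltage-gated channels let sodium, calcium or mixed cation currents cross the membrane when its voltage changes. The genes described here encode the sodium channel α and β subunits, the α1, α2δ and β subunits of calcium channels, and the HCN channels. They were taken by symbol from a table of 21286 genes (Scn followed by a number and a or b, Cacna1a to Cacna1i, Cacna2d, Cacnb and Hcn with a number), which gave 33 genes. Scn2a stands in the table under its older symbol Scn2a1 and is therefore not among the 33, and its values are given beside those of its class. RNA had been sequenced from the lateral ganglionic eminence (LGE), the part of the embryonic ventral forebrain that makes striatal projection neurons and olfactory bulb interneurons, at embryonic day 16.5. The groups were 3 libraries from Dlx1/2 -/- mutants, which lack a pair of homeobox transcription factors of ganglionic eminence cells, and 3 libraries from wild type littermates. Both groups were on a mixed background of C57BL/6J, 129S6 and CD1, and the labels name no transgene or treatment. Whether a library holds 1 embryo or several is not stated, and p-values then cover only the variation among the libraries sequenced, which may be technical. The library names differ in form between the genotypes, no batch is given, and any difference in preparation cannot be told apart from genotype. The whole dissected tissue was sequenced, so fewer cells of a type and less RNA per cell cannot be told apart.

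A sodium or calcium channel is built around 1 large pore-forming subunit (α or α1), which sets the kind of current, and smaller auxiliary subunits that bring it to the membrane and tune its gating. Calcium channels are grouped by their α1 subunit into L type (Cacna1c, Cacna1d, Cacna1f), P/Q type (Cacna1a), N type (Cacna1b), R type (Cacna1e) and T type (Cacna1g, Cacna1h, Cacna1i). T type channels open at low voltage and do not need the α2δ and β subunits in the way the other types do. HCN channels open on hyperpolarisation and carry the pacemaker current. In the embryonic forebrain calcium entry is known to guide the migration and differentiation of young neurons.

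The libraries held 15670067 to 16196974 counts in mutants and 10711630 to 16588359 counts in wild type. Dlx2 was at 16.8 ± 1.68 counts scaled to library size (CPM) in mutants and 436 ± 29.8 CPM in wild type, and Dlx1 at 122 ± 14.3 CPM in mutants and 857 ± 35.6 CPM in wild type (mean ± SD, n = 3 each). Of 13 genes that mark LGE tissue, 11 were lower and 1 higher in mutants, against 12.8% lower and 11.2% higher of all genes tested. The 11 include Dlx1 and Dlx2, the targeted genes themselves.

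Of the 33 channel genes 28 had enough reads to be tested, and 17 of them differed between genotypes, 5 higher and 12 lower in mutants (edgeR, quasi-likelihood, two-sided, with p adjusted by Benjamini-Hochberg over all 15326 genes tested and a threshold of 0.05). The share called was thus 60.7% of the tested channel genes, against 24% of all genes tested, 11.2% higher and 12.8% lower. A group had to reach 0.634 CPM for a gene to be tested, and 2 of the 28 genes passed through 1 group alone and so had to differ, among them Scn10a, through its wild type libraries. Among the 26 genes above that level in all 6 libraries, 4 were higher and 11 lower. The median log2 fold change of the 28 genes was -0.28, against 0.00 for all genes tested, and the median of its size was 0.62, against 0.19. The 2 genotypes did not overlap in 19 of the 28 genes, and in 41.9% of all genes tested. Without wild type replicate 3 the number of lower genes was 7. Of the 17 calls 10 held in every fit tried at the same threshold, and the values of others are given where each gene is described.

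**Figure D1:**
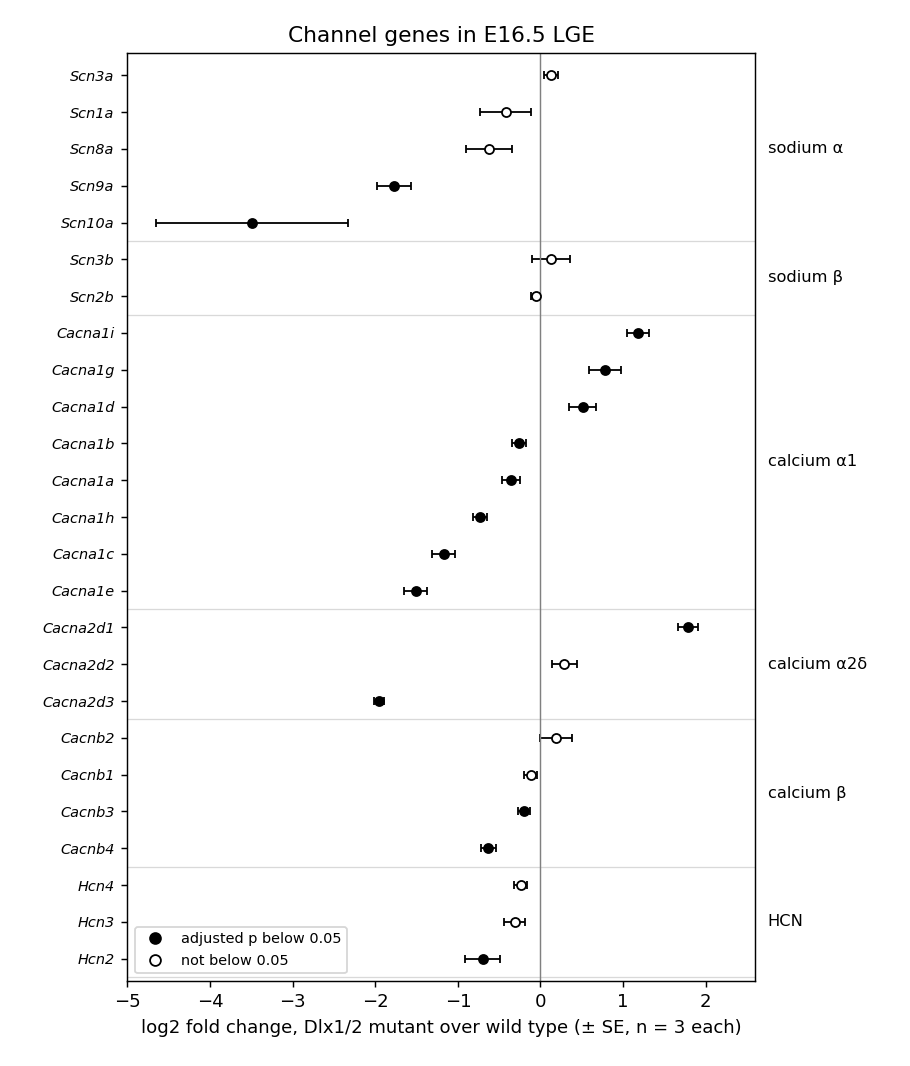
Log2 fold change, mutant over wild type, of 25 tested channel genes, ordered within each class, with SE bars (n = 3 libraries each); filled points passed the adjusted p of 0.05. The calcium α1 and α2δ genes spread to both sides of 0, from 1.78 for Cacna2d1 to -1.95 for Cacna2d3, while no sodium channel gene that passed lies above 0.

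Levels between genes were compared per length, as the deposited FPKM. Cacnb3, a cytoplasmic calcium channel β subunit that binds the α1 subunit, had the highest level of the 33 genes, with 77.2 ± 5.47 FPKM in mutants and 87.2 ± 2.96 FPKM in wild type. In wild type the next levels were those of Cacna1h at 14.1 ± 1.45 FPKM, Cacnb1 at 13.2 ± 0.339 FPKM, Cacna2d3 at 13.1 ± 0.662 FPKM, Hcn3 at 10.6 ± 1.58 FPKM and Scn3a at 9.10 ± 0.566 FPKM. Cacna1h, Cacnb1 and Cacna2d3 overlapped in their libraries, as did Hcn3 with Scn3a. In mutants the order after Cacnb3 was Cacnb1 at 12.3 ± 0.992 FPKM, Scn3a at 10.1 ± 0.929 FPKM, Hcn3 at 8.72 ± 0.531 FPKM and Cacna1h at 8.67 ± 0.259 FPKM, and Cacna2d3 stood at 3.44 ± 0.220 FPKM. At the low end Scn7a, Cacna1f, Cacna2d4, Scn4b and Scn11a had too few reads to be tested. The gene length that the deposited FPKM imply was 0.195 to 2.82 times the summed exon length of GENCODE M21 for these genes, against a median of 1.23 times over 12394 genes. Levels between genes therefore depend on that choice, and folds within a gene do not.

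**Figure D2:**
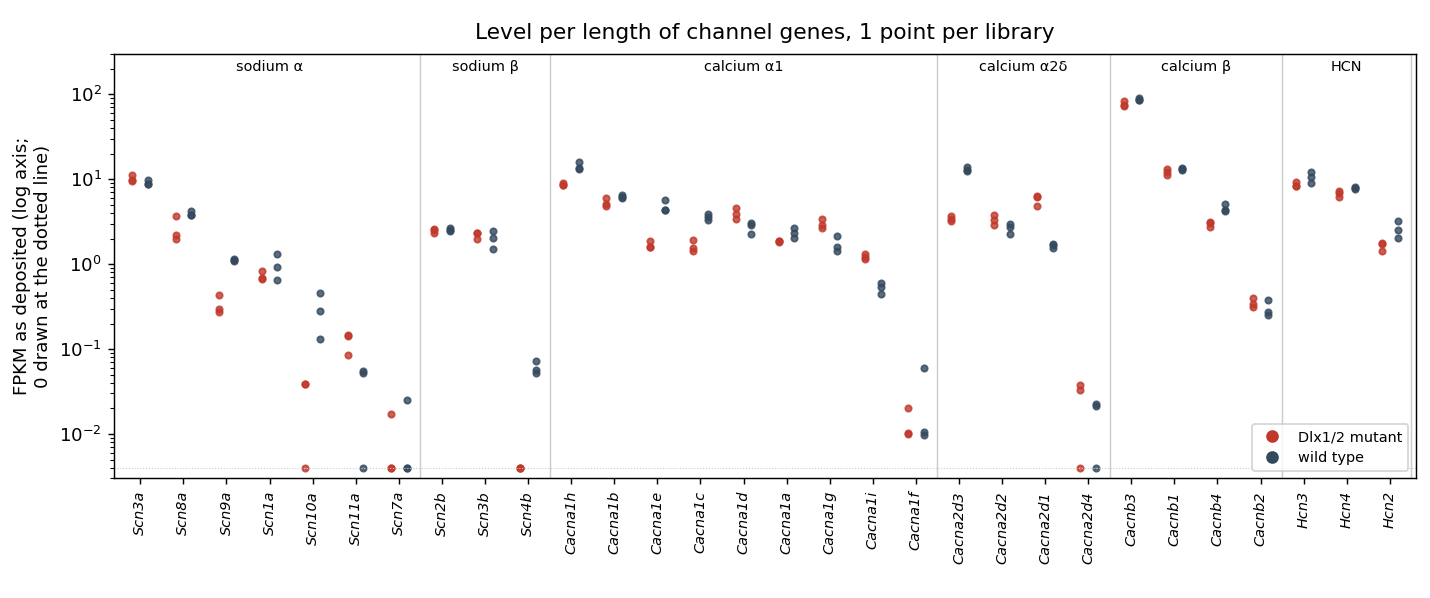
Deposited FPKM on a log axis for 30 channel genes, 1 point per library, with mutant libraries left of wild type libraries. Cacnb3 lies above 70 FPKM in all libraries, and Cacna2d3 and Cacna2d1 change places between genotypes.

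All 8 tested calcium channel α1 genes were called, 3 higher and 5 lower in mutants, against 24% called of all genes tested. The calls of Cacna1a, Cacna1b and Cacna1d were each lost as some libraries were left out. The genes of 1 current type did not move as a block. The R type gene Cacna1e and the L type gene Cacna1c fell, while the other L type gene of neurons, Cacna1d, rose. Among the T type genes Cacna1h fell and Cacna1g and Cacna1i rose. The N type gene Cacna1b and the P/Q type gene Cacna1a were lower by small amounts.

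Cacna1e (ENSMUSG00000004110, GRCm38 chromosome 1, 154390731 to 154884501, minus strand) had 62.0, 53.0 and 53.5 CPM in the mutant libraries and 147, 145 and 187 CPM in the wild type libraries. The lowest wild type value was above the highest mutant value. The fall was 2.84-fold, with a log2 fold change of -1.51 ± 0.141 (SE) and an adjusted p of 5.43e-05 (edgeR). Cacna1c, which encodes the main L type channel of heart and brain (ENSMUSG00000051331, chromosome 6, 118587240 to 119196418, minus strand), had 60.4, 45.6 and 50.7 CPM in mutants and 119, 107 and 127 CPM in wild type. It fell 2.26-fold in mutants, with no overlap of the groups (log2 fold change -1.17 ± 0.138, edgeR adjusted p = 1.89e-04).

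Cacna1d, whose L type channel opens at lower voltages than that of Cacna1c (chromosome 14, 30039939 to 30491455, minus strand), had 41.8, 35.5 and 31.4 CPM in mutants and 21.6, 26.4 and 27.9 CPM in wild type. All mutant values were above all wild type values, by 1.43-fold on average (log2 fold change 0.51 ± 0.164, edgeR adjusted p = 0.0263). The call was lost without mutant replicate 1 or 2 or wild type replicate 1 or 2, where the adjusted p ran from 0.0585 to 0.0825 (edgeR). Within a library, the ratio of Cacna1d to Cacna1c FPKM was 2.42, 2.73 and 2.16 in mutants and 0.637, 0.860 and 0.766 in wild type. The more abundant of the pair was thus Cacna1d in every mutant library and Cacna1c in every wild type library, and with GENCODE exon lengths the ratio was 1.04 to 1.31 in mutants and 0.306 to 0.413 in wild type. This ratio and the ones that follow are free of library scaling, and the pairs were chosen after their values were seen.

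Cacna1h, the T type gene with the highest level (chromosome 17, 25374285 to 25433783, minus strand), had 135, 143 and 137 CPM in mutants and 216, 253 and 215 CPM in wild type. The groups were well apart, and it fell 1.65-fold (log2 fold change -0.73 ± 0.0815, edgeR adjusted p = 2.12e-04). Cacna1i (chromosome 15, 80287238 to 80398279, plus strand) had 15.3, 13.3 and 14.1 CPM in mutants and 5.35, 6.30 and 7.05 CPM in wild type. It rose 2.27-fold in mutants with no overlap of the groups (log2 fold change 1.18 ± 0.128, edgeR adjusted p = 3.96e-04). Cacna1g (chromosome 11, 94408391 to 94474198, minus strand) had 52.5, 44.3 and 41.7 CPM in mutants and 22.4, 24.9 and 33.0 CPM in wild type. It rose 1.72-fold (log2 fold change 0.78 ± 0.195, edgeR adjusted p = 0.00783), and its highest wild type library, replicate 3, was still below every mutant library. The ratio of Cacna1g to Cacna1h FPKM was 0.404, 0.322 and 0.316 in mutants and 0.107, 0.102 and 0.159 in wild type, and that of Cacna1i to Cacna1h was 0.156, 0.128 and 0.141 in mutants and 0.0339, 0.0340 and 0.0448 in wild type. Cacna1h stayed the highest of the T type genes in both genotypes.

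The presynaptic channel genes changed little. Cacna1b, whose N type channel triggers transmitter release, had 104, 89.8 and 85.0 CPM in mutants and 109, 109 and 115 CPM in wild type. Its log2 fold change was -0.26 ± 0.0895 (edgeR adjusted p = 0.0481), and the call was lost without any 1 of mutant replicates 2 and 3 and the 3 wild type replicates (log2 fold change -0.20 to -0.35 and adjusted p 0.0123 to 0.14 over the libraries left out), and with library totals as the only scaling (adjusted p = 0.0761). Cacna1a, the P/Q type gene, was at 26.4 ± 0.429 CPM in mutants and 34.0 ± 4.44 CPM in wild type (log2 fold change -0.36 ± 0.111, edgeR adjusted p = 0.0367). Its call was lost without any 1 of the 3 mutant replicates or wild type replicate 1 or 3 (log2 fold change -0.27 to -0.46 and adjusted p 0.0154 to 0.103 over the libraries left out). Cacna1f, the L type gene of the retina, had 8 reads over the mutant libraries and 12 over the wild type libraries.

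The α1 classes can be put side by side as shares of their summed FPKM, which was 29.5, 26.9 and 25.7 in mutants and 33.6, 36.7 and 38.0 in wild type. T type genes together held 47.2 ± 1.84% in mutants and 45.3 ± 3.23% in wild type, so the falls and rises within that type left its share within the spread of the libraries. The R type gene held 6.23 ± 0.230% in mutants and 13.2 ± 1.51% in wild type. Within the L type, Cacna1c held 5.94 ± 0.592% in mutants and 10 ± 0.856% in wild type, and Cacna1d 14.4 ± 1.17% in mutants and 7.51 ± 0.632% in wild type (n = 3 each). With GENCODE exon lengths the share of Cacna1d was 7.27 ± 0.634% in mutants and 3.66 ± 0.326% in wild type, and that of the R type gene 5.65 ± 0.229% in mutants and 11.5 ± 1.41% in wild type.

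**Figure D3:**
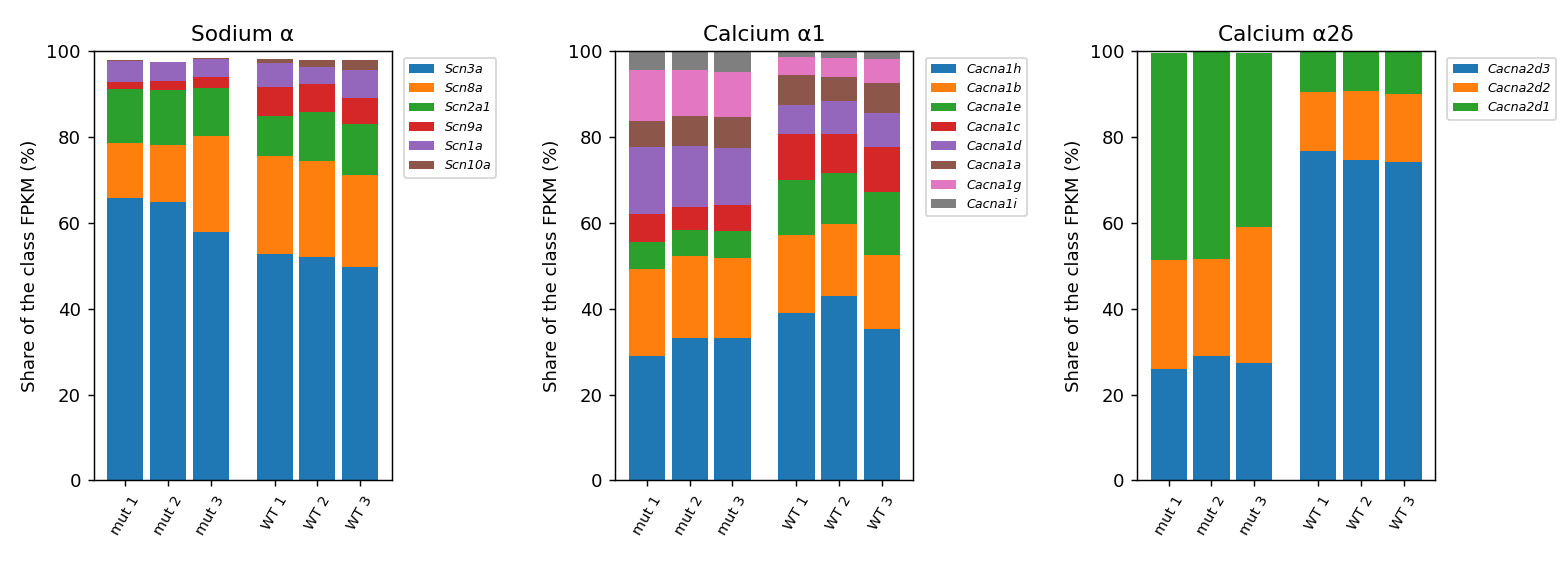
Share of each gene in the summed deposited FPKM of its class, as stacked bars per library (mut, mutant; WT, wild type), for sodium α genes with Scn2a1, calcium α1 genes and calcium α2δ genes; genes whose 2 group means sum to 1% or less, among others, are left out. In the α2δ panel Cacna2d3 holds 26.0 to 28.9% of mutant bars and 74.2 to 76.7% of wild type bars.

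The α2δ genes held the largest rise of the tested channel genes and, after Scn10a (tested through its wild type libraries alone), the largest fall. These subunits lie on the outer face of the membrane, raise the number of calcium channels at the surface and take part in synapse formation, and those of Cacna2d1 and Cacna2d2 bind the drug gabapentin. Cacna2d1 was 3.44-fold higher and Cacna2d3 3.86-fold lower in mutants, while Cacna2d2 was not called. Over all genes tested, 2.84% were called higher by 2-fold or more and 4.04% called lower by 2-fold or more.

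Cacna2d1 (ENSMUSG00000040118, chromosome 5, 15934691 to 16374511, plus strand) had 119, 117 and 92.9 CPM in mutants and 30.3, 32.2 and 32.9 CPM in wild type. Each mutant library exceeded every wild type library (log2 fold change 1.78 ± 0.121, edgeR adjusted p = 1.48e-05). Cacna2d3 (ENSMUSG00000021991, chromosome 14, 28904943 to 29721864, minus strand) had 12.3, 13.5 and 12 CPM in mutants and 47.3, 51.0 and 47.6 CPM in wild type. Its groups were far apart and each was tight (log2 fold change -1.95 ± 0.0613, edgeR adjusted p = 2.6e-06). Cacna2d2 (chromosome 9, 107399612 to 107529343) had 37.0, 32.7 and 43.2 CPM in mutants and 26.5, 33.8 and 31.4 CPM in wild type, with overlapping groups and a log2 fold change of 0.29 ± 0.156 (edgeR adjusted p = 0.134). Cacna2d4, a subunit of retinal photoreceptor channels, had 13 reads over the mutant and 8 over the wild type libraries.

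The ratio of Cacna2d1 to Cacna2d3 FPKM was 1.86, 1.67 and 1.49 in mutants and 0.123, 0.121 and 0.133 in wild type. With GENCODE exon lengths it was 5.43 to 6.80 in mutants and 0.443 to 0.486 in wild type, so Cacna2d1 was the higher of the pair in every mutant library and the lower in every wild type library on both scales. As shares of the α2δ FPKM, Cacna2d1 held 45.7 ± 4.47% in mutants and 9.45 ± 0.398% in wild type, and Cacna2d3 held 27.4 ± 1.47% in mutants and 75.2 ± 1.31% in wild type. With GENCODE exon lengths Cacna2d1 held 58.6 ± 5.57% in mutants and 21.4 ± 0.864% in wild type, and Cacna2d3 9.61 ± 0.627% in mutants and 46.5 ± 1.72% in wild type. The class total had no direction independent of the gene lengths. The summed α2δ FPKM as deposited was 13.0, 12.7 and 11.9 in mutants and 16.3, 18.4 and 17.4 in wild type, but with GENCODE exon lengths it was 15.9, 15.2 and 14.3 in mutants and 10.9, 12.7 and 12.1 in wild type, and the summed CPM was 148.4 to 168.7 in mutants and 104.1 to 117.3 in wild type.

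The bases just upstream of the annotated starts of this pair are shown. So are those of Cacna1i, the largest rise among α1 genes, and Scn9a, the largest fall among the better expressed sodium channel genes. These genes were picked for large changes in both directions, though Cacna1e changed more than Cacna1i. Each window is the 250 bases before the RefSeq start on GRCm38.p6, 5′ to 3′ on the strand of the gene. GC boxes (GGGCGG or its reverse CCGCCC, the letters bound by Sp factors) are in capitals. None of the 4 windows overlaps an annotated GENCODE exon.
Cacna2d1, chr5:15934441-15934690, plus strand: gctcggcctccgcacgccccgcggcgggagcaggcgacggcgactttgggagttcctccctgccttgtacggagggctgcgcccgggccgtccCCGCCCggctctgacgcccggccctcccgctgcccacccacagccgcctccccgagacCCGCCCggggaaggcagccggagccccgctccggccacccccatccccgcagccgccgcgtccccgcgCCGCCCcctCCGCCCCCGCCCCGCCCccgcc
Cacna2d3, chr14:29721865-29722114, minus strand: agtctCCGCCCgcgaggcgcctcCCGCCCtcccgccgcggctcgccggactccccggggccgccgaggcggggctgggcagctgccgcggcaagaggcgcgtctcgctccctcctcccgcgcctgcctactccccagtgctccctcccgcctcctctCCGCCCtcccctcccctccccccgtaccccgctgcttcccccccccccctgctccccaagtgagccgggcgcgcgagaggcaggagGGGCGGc
Cacna1i, chr15:80286988-80287237, plus strand: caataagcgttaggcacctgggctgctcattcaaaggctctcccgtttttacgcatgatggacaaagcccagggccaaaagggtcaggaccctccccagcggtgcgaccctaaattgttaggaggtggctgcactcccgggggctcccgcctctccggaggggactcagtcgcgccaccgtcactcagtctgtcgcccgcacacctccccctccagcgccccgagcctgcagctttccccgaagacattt
Scn9a, chr2:66634963-66635212, minus strand: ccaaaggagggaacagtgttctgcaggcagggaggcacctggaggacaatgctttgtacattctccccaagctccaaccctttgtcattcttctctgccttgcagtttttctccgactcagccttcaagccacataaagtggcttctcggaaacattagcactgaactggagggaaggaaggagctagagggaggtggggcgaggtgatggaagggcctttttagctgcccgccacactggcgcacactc
The α2δ pair, opposite in its change, had alike windows, with 82.4% G and C and 6 GC boxes (overlapping ones counted) for Cacna2d1 and 80.0% and 4 GC boxes for Cacna2d3, while Cacna1i had 62.4% and Scn9a 54.4% and neither held a GC box. Of 33 channel genes 23 had at least 1 window in the RefSeq table, 32 windows in all. The median share of G and C was 59.2% in these 32 windows and 52.4% in all 32851 windows, and its part in the motif shares below was not tested. GGGCGG, searched on both strands, was in 14 of these 32 windows (43.8%), and in 32.7% of all 32851 windows of the same length. TAATTA, a core sequence of homeodomain factors that reads the same on both strands, was in 0 of the 32 windows and in 4.84% of all windows, which says only that these letters are not in these windows. TATAAA, on both strands, was in 1 window, of Cacna1d, and in 12.4% of all windows.

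Among calcium channel β subunits, cytoplasmic proteins that carry α1 subunits to the membrane, 2 of 4 were called, both lower in mutants. Cacnb4 had 49.3, 50.6 and 44.6 CPM in mutants and 72.2, 69.6 and 82.2 CPM in wild type. It fell 1.55-fold with no overlap (log2 fold change -0.63 ± 0.0911, edgeR adjusted p = 0.00122). Cacnb3, the most abundant channel gene, had 225, 232 and 259.9 CPM in mutants and 272, 283 and 268 CPM in wild type, with the groups apart. Its log2 fold change of -0.20 ± 0.0675 was called with an adjusted p of 0.0495 (edgeR), and was not called without any 1 of the libraries other than mutant replicate 3 (log2 fold change -0.16 to -0.26, adjusted p 0.0134 to 0.151 over the libraries left out), with library totals alone (adjusted p = 0.0655) or without the filter (adjusted p = 0.0568). Cacnb1 was at 76.8 ± 6.69 CPM in mutants and 83.7 ± 1.66 CPM in wild type, and Cacnb2 at 8.60 ± 1.10 CPM in mutants and 7.49 ± 1.58 CPM in wild type, both not called. The shares of the β genes in their summed FPKM stayed close, with Cacnb3 at 83.1 ± 0.424% in mutants and 82.9 ± 0.525% in wild type.

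**Figure D4:**
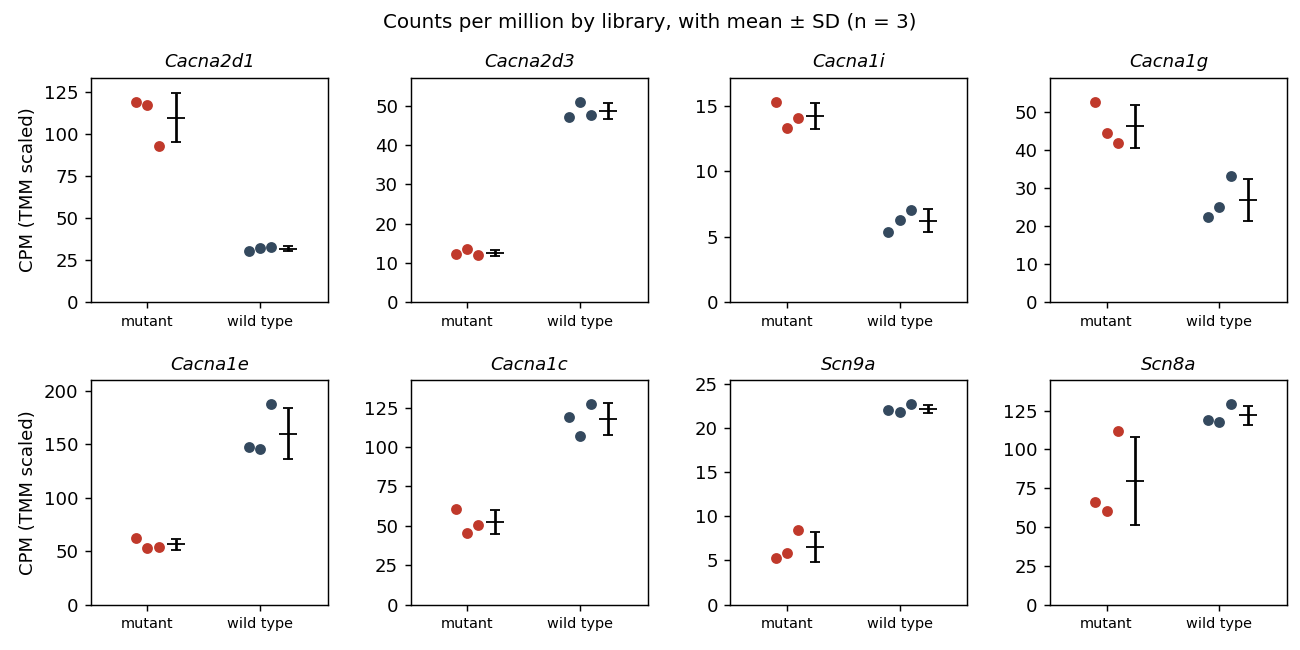
Scaled counts (CPM) of 8 channel genes in each library, mutant left of wild type, with mean ± SD (n = 3) beside the points and axes from 0. The groups are apart in all 8 panels, but in the Scn8a panel 1 mutant library at 112 CPM lies just below the wild type libraries at 118 to 129 CPM.

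Among the sodium channel α genes Scn9a was lower in mutants, as was the rare Scn10a, which was tested through its wild type libraries alone. The most abundant one, Scn3a, was not called. Scn3a, the α gene typical of embryonic brain (chromosome 2, 65457118 to 65567627, minus strand), had 192, 167 and 164 CPM in mutants and 154, 154 and 169 CPM in wild type. The groups overlapped, and the log2 fold change of 0.13 ± 0.0831 was not called (edgeR adjusted p = 0.230). Scn2a1, the older symbol of Scn2a, had 33.9, 30.8 and 29.3 CPM in mutants and 25.3, 31.7 and 38.3 CPM in wild type, also without a call (edgeR adjusted p = 0.924). Scn1a, a channel gene that rises after birth in inhibitory neurons, had 20.2, 16.4 and 17.0 CPM in mutants and 23.5, 15.8 and 32.2 CPM in wild type. Its wild type libraries spread widely, the log2 fold change of -0.42 ± 0.310 was not called (edgeR adjusted p = 0.239), and without wild type replicate 2 it was -0.65 and called (adjusted p = 0.0363).

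Scn9a, known for its part in pain-sensing neurons (ENSMUSG00000075316, chromosome 2, 66480080 to 66634962, minus strand), had 5.30, 5.82 and 8.42 CPM in mutants and 22.1, 21.8 and 22.7 CPM in wild type. It fell 3.41-fold with a tight wild type group and no overlap (log2 fold change -1.77 ± 0.204, edgeR adjusted p = 1.65e-04). Scn10a, another gene of sensory neurons (chromosome 9, 119608456 to 119719322, minus strand), was rare, with 4, 0 and 4 reads in mutants and 9, 28 and 49 reads in wild type. It was called lower (log2 fold change -3.49 ± 1.16, edgeR adjusted p = 0.00839), and ran from -2.93 to -3.89 as each library was left out. Scn10a was tested through its wild type libraries alone, so the filter itself favoured a lower value. The call and the range are therefore no independent support for a fall.

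Scn8a, the α gene of mature nodes and axon initial segments (chromosome 15, 100869858 to 101045938, plus strand), had 66.0, 60.6 and 112 CPM in mutants and 119, 118 and 129 CPM in wild type. Mutant replicate 3 stood near the wild type libraries, away from its 2 group mates. The log2 fold change was -0.62 ± 0.281 without a call (edgeR adjusted p = 0.0698), and -0.95 with a call without mutant replicate 3 (adjusted p = 2.95e-04). Scn11a had 14, 13 and 8 reads in mutants and 0, 5 and 5 reads in wild type, a ratio of 3.09 with a 95% Clopper-Pearson interval of 1.5 to 6.99 that covers counting error only, and it was not tested. Scn7a had 2 reads in each group. Scn4a was not analysed here.

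Several α genes lie in clusters. Scn3a, Scn2a1, Scn1a, Scn9a and Scn7a stand in this order on chromosome 2 between 65457118 and 66784914, and Scn10a and Scn11a lie side by side on chromosome 9 between 119608456 and 119825456. In the chromosome 2 cluster Scn9a fell 3.41-fold beside Scn1a and Scn2a1, which were not called, and the ratio of Scn3a to Scn9a FPKM was 41.0, 32.6 and 22.1 in mutants and 7.93, 8 and 8.46 in wild type. On chromosome 9 Scn10a was lower, and Scn11a held more reads in mutants. As shares of the α FPKM with Scn2a1 included, Scn3a held 62.9 ± 4.38% in mutants and 51.5 ± 1.57% in wild type, and Scn9a 2.07 ± 0.511% in mutants and 6.34 ± 0.410% in wild type. The exons of these genes are alike in sequence and how reads were assigned is not stated, so reads of close copies cannot be fully separated.

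The sodium channel β genes encode single-pass membrane proteins that modulate gating and cell adhesion. Neither Scn2b nor Scn3b was called (edgeR adjusted p = 0.674 for Scn2b and 0.635 for Scn3b). Scn2b had 20.9, 20.7 and 19.1 CPM in mutants and 20.7, 20.4 and 21.9 CPM in wild type. Scn3b had 35.0, 35.3 and 30.4 CPM in mutants and 38.5, 22.9 and 31.0 CPM in wild type, and its log2 fold change of 0.13 ± 0.228 was -0.05 without wild type replicate 2. Scn4b, a β subunit of adult striatal neurons (chromosome 9, 45138395 to 45154152, plus strand, next to Scn2b), had 0 reads in each of the 3 mutant libraries and 3, 4 and 6 reads in the wild type libraries. Had the mutant group held the floor of 3 reads, Scn4b would have been 4.92-fold lower in mutants. This value leaves out the counting error of the few wild type reads, and the gene was not tested.

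Among the HCN genes Hcn2 was lower in mutants, and the more abundant Hcn3 and Hcn4 were not called. Hcn3 had 46.1, 46.0 and 51.6 CPM in mutants and 51.0, 59.2 and 67.3 CPM in wild type. The groups overlapped (log2 fold change -0.31 ± 0.128, edgeR adjusted p = 0.0706), and the gene was called without wild type replicate 1 (log2 fold change -0.41, adjusted p = 0.0177). Hcn4, the gene of the cardiac pacemaker, had 22.8, 26.0 and 27.5 CPM in mutants and 30.6, 30.6 and 29.2 CPM in wild type, apart but without a call (log2 fold change -0.24 ± 0.0819, edgeR adjusted p = 0.0843). Hcn2 had 7.37, 7.65 and 6.16 CPM in mutants and 8.98, 11.1 and 14.1 CPM in wild type. It was called lower (log2 fold change -0.70 ± 0.210, edgeR adjusted p = 0.0243), but not without any 1 of the libraries other than wild type replicate 1 (log2 fold change -0.52 to -0.84, adjusted p 0.0096 to 0.0828 over the libraries left out).

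Genes whose products bind or anchor these channels were read from 3 lists with 43 entries, of which 39 were tested. Of these 39, 4 were higher and 13 lower in mutants, 43.6% called, against 24% of all genes tested, with a median log2 fold change of -0.05. Without mutant replicate 2 the number of higher partner genes was 2.

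Among calcium channel partners 1 of 21 tested was higher and 9 were lower, 47.6% called, against 24% of all genes tested. Stac2, an adaptor of L type channels, was at 3.5 ± 0.501 CPM in mutants and 24.4 ± 2.16 CPM in wild type. It fell by 2.80 on the log2 scale (SE 0.143, edgeR adjusted p = 5.14e-06). The γ subunit family, named after calcium channels though these members mainly serve AMPA receptors, went both ways. Cacng2, which encodes stargazin, rose to 35.8 ± 0.994 CPM in mutants, against 22.2 ± 2.30 CPM in wild type (edgeR adjusted p = 0.00122). Cacng4 fell to 184 ± 2.77 CPM in mutants, against 269.8 ± 14.4 CPM in wild type (edgeR adjusted p = 1.48e-04), and Cacng3 fell to 2.92 ± 0.534 CPM, against 8.4 ± 1 CPM in wild type (edgeR adjusted p = 6.73e-04). Cacng5 also fell, by 0.88 on the log2 scale. The presynaptic scaffold gene Rims3 fell by 0.89 on the log2 scale (edgeR adjusted p = 0.00173). Rimbp2, which links scaffolds of the release site to calcium channels, was lower by 0.54 on the log2 scale (edgeR adjusted p = 0.0174), with adjusted p up to 0.0630 as libraries were left out (without mutant replicate 2 or 3). Rem2, an inhibitor of calcium channels, was lower by 0.85 on the log2 scale (edgeR adjusted p = 0.0140, or 0.0515 without mutant replicate 3). Among calmodulin genes, Calm3 was at 479 ± 6.74 CPM in mutants and 572 ± 6.70 CPM in wild type (edgeR adjusted p = 0.00390). Calm2 was at 429 ± 11.4 CPM in mutants and 417 ± 2.85 CPM in wild type, without a call.

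Sodium channel partners numbered 13 tested, 1 higher and 4 lower, 38.5% called, against 24% of all genes tested. Sptbn4, the spectrin of axon initial segments, fell to 34.7 ± 4.99 CPM in mutants, against 63.0 ± 10.8 CPM in wild type (edgeR adjusted p = 0.00398). Fgf11, an intracellular factor of the family that binds sodium channels, fell to 51.8 ± 1.45 CPM, against 65.3 ± 2.69 CPM in wild type (edgeR adjusted p = 0.00623). Ank3, ankyrin-G, which anchors sodium channels at the initial segment, was higher at 307 ± 12 CPM in mutants and 245 ± 27.0 CPM in wild type (edgeR adjusted p = 0.0205, or 0.0528 without mutant replicate 2 and 0.0705 without mutant replicate 3). Nfasc, an adhesion protein of the same site, was lower by 0.27 on the log2 scale (edgeR adjusted p = 0.0175, and 0.0605 to 0.0638 without mutant replicate 2, wild type replicate 2 or wild type replicate 3). Unc80, a subunit of the sodium leak channel, was lower by 0.65 on the log2 scale (edgeR adjusted p = 0.0153, or 0.0528 without mutant replicate 2). Among 5 tested HCN partners 2 were higher (40%), against 11.2% of all genes tested called higher. Pex5l, an auxiliary subunit of HCN channels, was at 8.12 ± 1.43 CPM in mutants and 4.04 ± 1.68 CPM in wild type (edgeR adjusted p = 0.0450), a call lost without any 1 of the libraries other than wild type replicate 1 (adjusted p up to 0.136). Iqgap1, a scaffold protein, was at 120.3 ± 4.24 CPM in mutants and 97.2 ± 3.08 CPM in wild type (edgeR adjusted p = 0.00453).

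**Figure D5:**
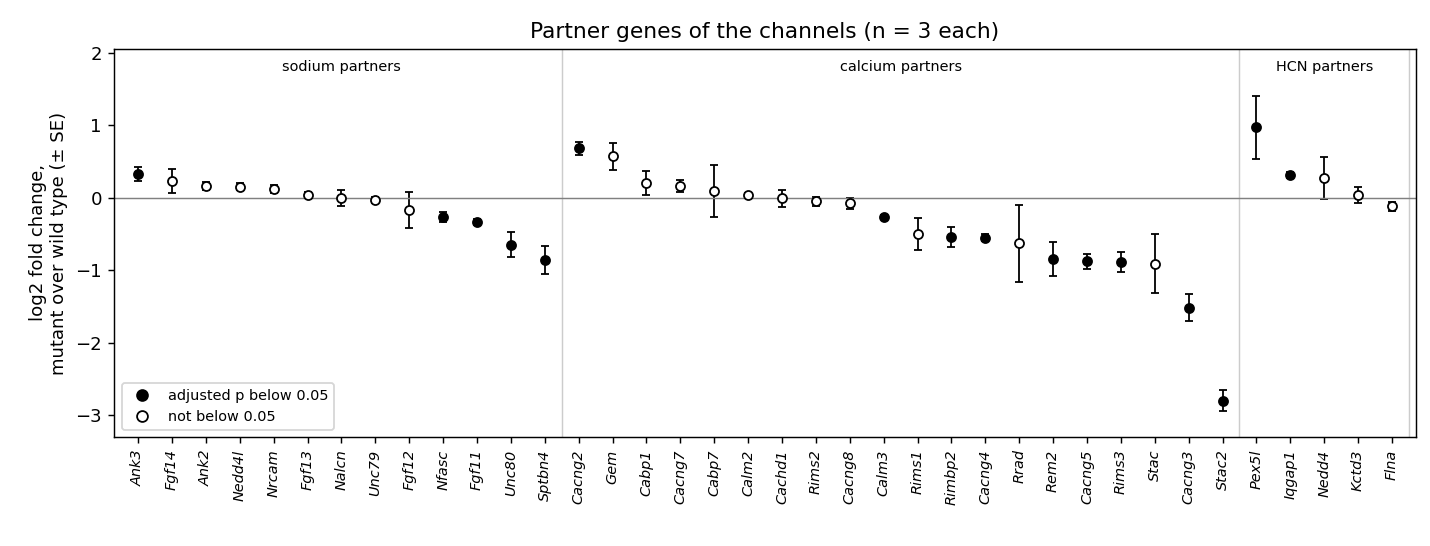
Log2 fold change, mutant over wild type, of 38 tested partner genes by list, with SE bars (n = 3 each); filled points passed the adjusted p of 0.05. Stac2 at -2.80 lies lowest, and Pex5l at 0.97 highest with a wide bar.

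Lists of cell type markers moved beside the channel genes, and their part in these results was not tested. Of all genes tested, 11.2% were called higher and 12.8% lower. Of 12 general neuron markers 4 were higher and 5 lower. Their summed CPM was 5482 to 5710 in mutants and 6136 to 6942 in wild type. The 2 highest in CPM were Tubb3 and Dcx, and neither is among the 4 higher ones. Tubb3 was at 1498 ± 83.7 CPM in mutants and 2115 ± 123 CPM in wild type. Dcx was at 1488 ± 73.0 CPM in mutants and 1559 ± 60.8 CPM in wild type, without a call (edgeR adjusted p = 0.468). Of 10 progenitor markers 4 were higher and 0 lower, with summed CPM of 3485 to 3719 in mutants and 2680 to 3235 in wild type. Of 6 tested hypothalamic and ventral markers 5 were higher, with summed CPM of 587.5 to 657.7 in mutants and 3.116 to 4.30 in wild type. Of 7 tested pallial glutamatergic markers 5 were higher, with summed CPM of 132.1 to 196.9 in mutants and 28.19 to 82.43 in wild type. The other 2 tested were not called and had lower means in mutants. Of 8 medial ganglionic eminence markers 3 were higher and 2 lower, and their summed CPM was 712.1 to 829.1 in mutants and 379.6 to 566.7 in wild type. Among the higher ones were Sst (223 ± 37.9 CPM in mutants, 17.2 ± 3.63 CPM in wild type) and Sox6 (167 ± 23.6 CPM in mutants, 76.4 ± 6.76 CPM in wild type). Lhx6, at 155 ± 9.92 CPM in mutants and 178 ± 38.3 CPM in wild type, was not called. The sum therefore does not speak for each marker. Summed CPM of oligodendrocyte precursor markers was 135.4 to 151.4 in mutants and 85.72 to 125.2 in wild type, of microglia markers 64.72 to 77.70 in mutants and 50.83 to 60.88 in wild type, and of endothelial markers 130.2 to 135.0 in mutants and 135.2 to 154.4 in wild type. Pericyte and smooth muscle markers held 136.6 to 146.5 CPM in mutants and 122.8 to 134.3 CPM in wild type, and those of meningeal fibroblasts 10.84 to 14.48 CPM in mutants and 13.37 to 15.10 CPM in wild type. Called genes in these lists were 2 of 6 tested oligodendrocyte precursor markers and 1 of 8 microglia, 1 of 4 pericyte and 1 of 5 erythroid markers, all higher, and 1 of 7 endothelial and 1 of 3 meningeal markers, both lower. In lists this small, such counts stand near the 24% called over all genes tested. Erythroid markers overlapped between the groups, at 579.7 to 775.1 CPM in mutants and 434.0 to 641.9 CPM in wild type.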

How the data were processed

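Reads had been turned into 1 table per gene. Per the submitters' processing notes, HISAT2 2.0.4, StringTie 1.3.0 and edgeR were used with GRCm38.p4 and mm10, with no role given for each. The deposited counts are raw whole numbers, per the file headers. The FPKM values deposited by the authors equal count per library total times a factor per gene, within 0.0001, in all 11418 genes whose count exceeds 50 throughout. A deposited p-value per gene, per the file headers, comes with no named test. In the authors' deposited table, 16 of the 17 channel genes called here have p below 0.05, as have 2 that were tested but not called (Scn8a, p = 0.00148, and Hcn3, p = 0.0229) and 2 of the 5 not tested (Scn11a, p = 0.00336, and Scn4b, p = 0.000399). The sources used here name no counter, annotation or strand setting, so reads of overlapping genes on opposite strands may be mixed. Exons of 7 channel genes share 80 to 1433 bases with other genes, which held 2 to 83 reads.

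Counts were tested in R 4.3.3 with edgeR 4.0.16 (filterByExpr, TMM, glmQLFit, glmQLFTest, two-sided, Benjamini-Hochberg over 15326 genes). CPM are counts relative to the TMM-scaled library size. Each SE was computed from the spread of log2 CPM (0.5 added to each count) within the groups. A floor of 3 counts is 0.181 to 0.280 CPM in a library. Alternatives were RLE, library totals, no filter, DESeq2 1.42.0, a replicate block, each library left out and a threshold of 0.01. The GENCODE M21 exon length was added after the data were seen. By rule every channel gene, the called partner genes, the 2 uncalled ones highest in FPKM per list and the 3 highest markers per list could be named. Upstream sequences are from RefSeq, build GRCm38.p6. The channel genes, lists and tests were chosen with earlier results of these data known. The fit was tested on simulated data with few changed genes and the same spread for every gene. Such data differ from these, so that test does not check the calls given here. Some channel and partner genes are not reported here, though they count in the totals.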

Additional observations from a re-analysis of the deposited data

How the results depend on the processing

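The main counts were 5 channel genes higher and 12 lower, and 4 partner genes higher and 13 lower. At an adjusted p below 0.01 they were 3 and 7, and 2 and 8. As each library was left out, channel genes ran from 4 to 5 higher and 7 to 10 lower, and partner genes from 2 to 5 higher and 9 to 14 lower. With DESeq2 they were 4 and 11 for channel genes. Of 336 values of single channel genes under the alternatives, 285 kept direction and side of the threshold, 46 lost the call, 4 gained one and 1 changed sign. Sign changes were confined to genes without a call: with library totals Nalcn was 0.01 and Cachd1 0.02, and over the libraries left out the log2 fold change was -0.05 to 0.31 for Scn3b, -0.16 to 0.13 for Scn2a1, -0.11 to 0.07 for Nalcn, -0.14 to 0.48 for Cabp7, -0.33 to 0.10 for Fgf12, -0.05 to 0.11 for Kctd3 and -0.09 to 0.05 for Cachd1; the cause was not tested. Libraries with the same replicate number did not deviate together (r of -0.176, 0.0426 and -0.168 for numbers 1 to 3). Each group was centred on its own 3 libraries, so these values are tied to each other and cannot exclude a pairing. Mutant replicate 3 went best with wild type replicate 1 (r = 0.25). With the numbers as a replicate block channel genes were 4 higher and 8 lower and partner genes 3 and 11. Library totals shifted the median gene by 0.023 and RLE by -0.00081 on the log2 scale. Of 78 class shares, 58 moved by more than 1 SD with GENCODE exon lengths, and the summed α2δ level changed direction between genotypes with them. The 5 channel genes under the filter cannot show modest changes at this depth.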
